A study of Mus musculus with 2 samples.

Results

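The Slc47a1 border fibroblast-like cells, called border cells here, were 480 of the 12036 barcodes kept from a single-cell RNA sequencing experiment on mouse brain. A barcode is the tag shared by the RNA of 1 droplet. It was kept if 500 genes or more were detected in it and if mitochondrial genes made up no more than 10% of its counts. A kept barcode was a border cell if at least 5 of Mgp, Ccn3, Slc47a1, Igfbp5, Igfbp6, Rspo3, Bnc2 and Foxp2 (the border genes) had at least 2 UMIs each and fewer than 5 of Dcn, Lum, Col1a1, Col1a2, Col3a1, Pdgfra and Slc6a13 (the collagen genes) were detected. A UMI, or unique molecular identifier, counts 1 captured RNA molecule. The cells were thus selected on the measured counts of these 15 genes, whose levels describe the choice and are not tested.

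The meninges that wrap the brain hold several kinds of fibroblast, among them those of the pia, the arachnoid and the dura. Cells at the border between arachnoid and dura make little collagen, adhere to each other and lie next to the arachnoid barrier, which keeps the blood side of the dura apart from the cerebrospinal fluid. Slc47a1 encodes the transporter MATE1, which exports organic cations in exchange for protons, and it has been used to mark dural border cells in mice. In these data no value measured where in the tissue a cell had lain.

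The study sorted cells from whole brains of adult mice and loaded 1 droplet library per genotype, so no difference between genotypes has a replicate check and no p-value is given. The mutant mice were Mrc1Cre:Csf1rfl/fl: both alleles of Csf1r, the receptor for the growth factors CSF1 and IL-34, were floxed, and Cre was driven from Mrc1, a gene of border-associated macrophages. The control mice were Csf1rfl/fl, with the same floxed alleles and no Cre in the label. Both libraries pooled mural cells and fibroblasts sorted by CD13 and/or CD140a without O4, endothelial cells by CD31, astrocytes by ACSA-2, border-associated macrophages and microglia by CD11b and F4/80; neither the number of animals nor the proportions in which the sorts were loaded is given in the sources used here.

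Border cells numbered 359 of 6294 kept mutant barcodes and 121 of 5742 kept control barcodes. Their share was 5.70% in the mutant library (95% Clopper-Pearson interval 5.14% to 6.31%) and 2.11% in the control library (1.75% to 2.51%). These intervals, and all others given here, cover counting error only. The collagen-rich cells, which had at least 2 UMIs of at least 5 collagen genes and of fewer than 5 border genes, numbered 31 in the mutant library and 33 in the control library. Border cells were therefore 92.1% of border and collagen-rich cells together in the mutant library (88.9% to 94.5%) and 78.6% in the control library (71.2% to 84.8%). The files do not record which sort a cell came through or how much of each sort a library received, so loading and tissue content cannot be told apart. No barcode sequence of a border cell occurred in both libraries, although 17 sequences were shared among all barcodes.

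The median border cell held 11119 UMIs from 3943 genes in the mutant library and 10885 UMIs from 3868 genes in the control library. Summed over the cells of a library this gave 4474115 mutant and 1566248 control UMIs, and levels are given below as counts per 1000000 of these sums (CPM). Because the assay counts 1 tag near the 3′ end of a molecule, CPM was not divided by transcript length. The median mitochondrial share was 6.50% in mutant and 7.12% in control border cells, against 3.58% and 3.96% in the other kept barcodes. A doublet caller marked 21 mutant border cells (5.85%) and 4 control border cells (3.31%), which were kept in the values below.

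The border limit of the rule fell in a sparse range of barcodes, whereas the collagen limit cut through a continuous set of cells. All 8 border genes were present in 296 of 359 mutant and 102 of 121 control border cells, while 5268 mutant and 5121 control barcodes had none and 71 and 43 with fewer than 5 collagen genes had 2 to 4. By contrast, 165 mutant and 56 control border cells sat just inside the collagen limit with exactly 4 collagen genes, and 79 mutant and 18 control barcodes sat just outside it with exactly 5. Those just inside had Slc47a1 at 1519 and 1607 CPM in the mutant and control libraries, and those just outside at 1484 and 1541 CPM. Dcn, which encodes the proteoglycan decorin, was at 711 and 660 CPM just inside and 1383 and 1558 CPM just outside. Depth moved along with the limit: the median was 12670 and 13517 UMIs inside and 16553 and 17006 UMIs outside, and its part in which cells passed was not tested. Just inside the border limit, 9 mutant and 4 control cells had exactly 5 border genes, and just outside it 8 and 4 had exactly 4.

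**Figure D1:**
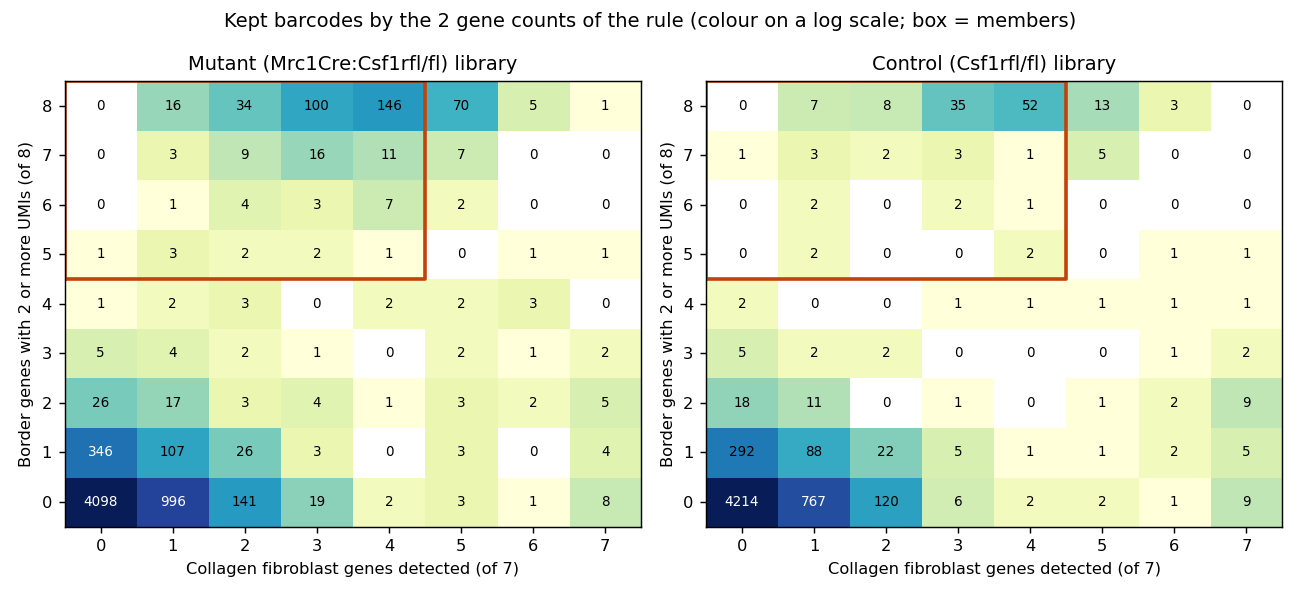
Numbers of kept barcodes of the mutant library (left) and the control library (right) by how many of the 8 border genes had at least 2 UMIs (vertical) and how many of the 7 collagen genes were detected (horizontal), coloured on a log scale with the border cells boxed. Most border cells carry 8 border genes and 3 or 4 collagen genes, and the 79 mutant and 18 control barcodes with exactly 5 collagen genes lie directly beside the box.

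Mgp was the most abundant gene of the border cells, leaving aside mitochondrial, ribosomal protein and predicted genes. It encodes matrix Gla protein, an inhibitor of calcification, and stood at 12276 CPM in mutant and 13464 CPM in control border cells, against 2219 and 452 CPM in the collagen-rich cells and 30.2 and 25.6 CPM in all other kept barcodes of the mutant and control libraries. Slc47a1 (GRCm38 chr11:61343401-61378345, minus strand) stood at 1543 and 1644 CPM in mutant and control border cells, against 6.40 and 3.14 CPM in the collagen-rich cells. It had a UMI in 99.2% of mutant and 100% of control border cells. In microglial barcodes, which should lack it, a UMI was found in 1.74% and 1.14%, and their source was not tested.

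The other border genes included secreted regulators and transcription factors. Igfbp5 and Igfbp6 bind insulin-like growth factors; Igfbp5 stood at 3122 and 3823 CPM in mutant and control border cells and Igfbp6 at 1148 and 1092 CPM. Ccn3, a matricellular protein, was at 2348 and 2026 CPM, and Rspo3, a secreted enhancer of Wnt signalling, at 1242 and 1117 CPM. Bnc2, a zinc finger protein, was at 1563 and 1501 CPM, and the forkhead factor Foxp2 at 1550 and 1527 CPM.

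The collagen genes named here stood lower than in the collagen-rich cells, and Col1a2 was found in nearly every border cell. Col1a2, a chain of type I collagen, stood at 1196 and 1320 CPM in mutant and control border cells, against 28353 and 2132 CPM in the collagen-rich cells. It had a UMI in 98.6% of mutant and 98.3% of control border cells. A single cell held 70.4% of the Col1a1 UMIs of the mutant collagen-rich set, and 2 barcodes of it held 4060 UMIs of the osteocalcin gene Bglap, a bone gene, so the mutant collagen-rich levels of bone and type I collagen genes rest on very few cells. Dcn stood at 459 and 423 CPM in mutant and control border cells, against 9430 and 8062 CPM in the collagen-rich cells. Slc6a13, a GABA and taurine transporter of brain fibroblasts, stood at 0.224 CPM in mutant border cells and 0 in control ones, against 800 and 1340 CPM in the collagen-rich cells. Pdgfra, which encodes CD140a, stood at 21.5 and 27.5 CPM in mutant and control border cells, against 948 and 615 CPM in the collagen-rich cells. Anpep, which encodes the other sort antigen CD13, stood at 84.7 and 92.6 CPM, with a UMI in 57.7% of mutant and 62.0% of control border cells and in 0.413% and 0.539% of microglial barcodes.

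**Figure D2:**
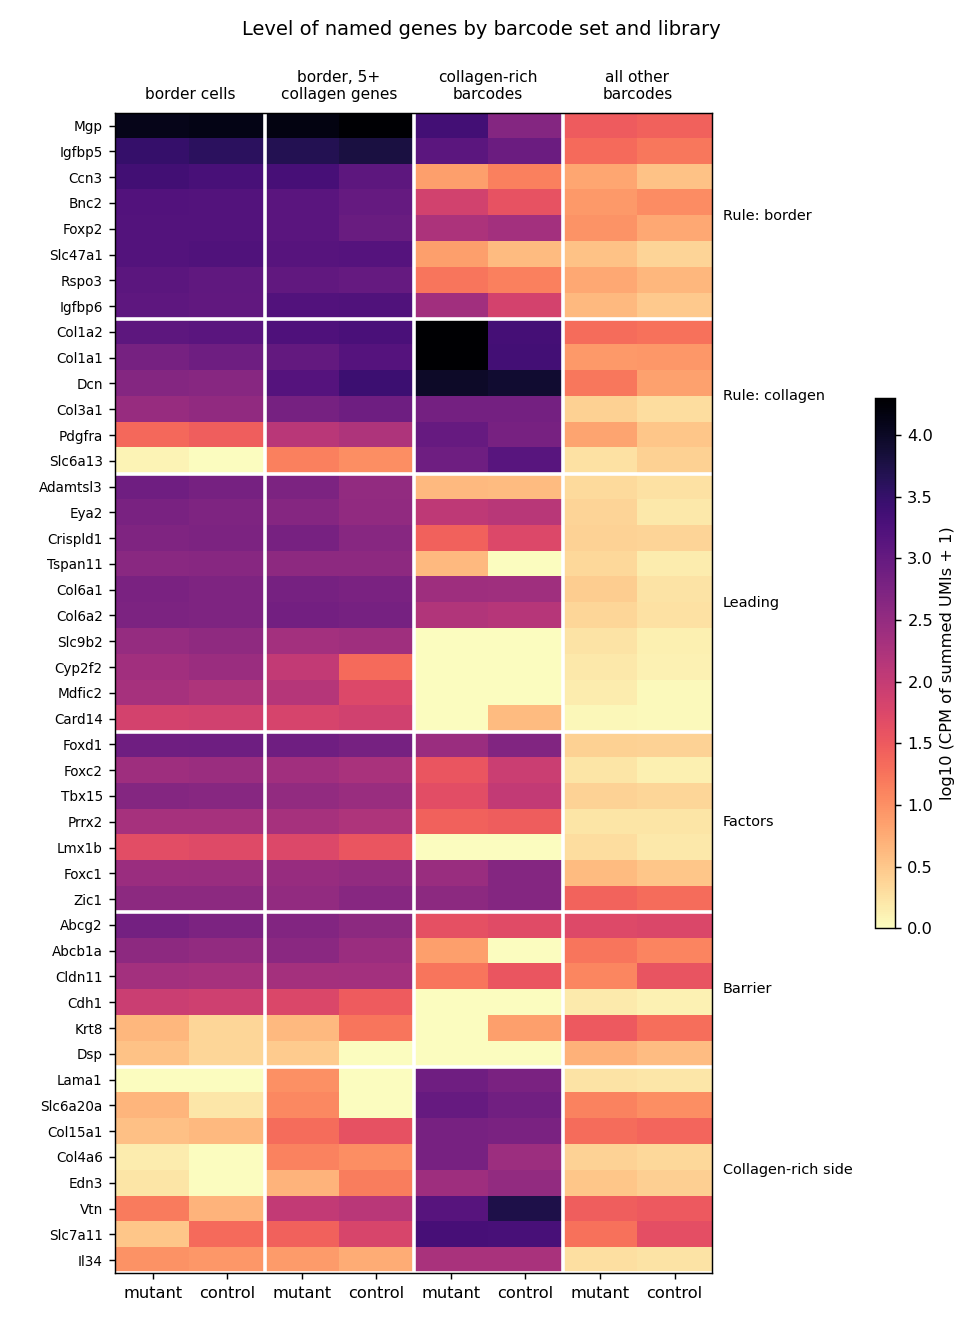
Heat map of levels as log10 of CPM plus 1, with genes grouped by role in rows and, in columns, border cells, barcodes of the border part of the rule with 5 or more collagen genes, collagen-rich barcodes and all other barcodes, each for the mutant and the control library. Slc47a1, at 1543 and 1644 CPM in border cells, is dark in the first and second column pairs and pale in the others, while Slc6a13 and Lama1 are dark in the collagen-rich barcodes.

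Genes that the rule did not use were also compared, in lists chosen with earlier results of these data known. Of 28 measured transcription factors known from the meninges, 23 were at least 2-fold higher in border cells than in all other kept barcodes in both libraries, and of 25 fibroblast and mesenchymal genes 21 were. Over all 14261 genes measured, 13.8% were higher by that measure and 15.2% lower. Against the collagen-rich cells, 4 of the same 25 fibroblast and mesenchymal genes were at least 2-fold higher in both libraries and 11 lower. Their median log2 difference was −1.44 in the mutant and −0.71 in the control library. Over all 9839 genes measured in that comparison, 7.02% were higher and 5.62% lower. Foxd1, a forkhead factor, stood at 758 and 785 CPM in mutant and control border cells, against 1.59 and 1.49 CPM in the other barcodes. Foxc2 stood at 248 and 262 CPM, Zic1 at 384 and 377 CPM, Tbx15 at 462 and 427 CPM and Twist1 at 152 and 142 CPM in mutant and control border cells. The type VI collagen chains Col6a1 and Col6a2 were at 573 and 538 CPM and at 555 and 543 CPM.

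The name fibroblast-like therefore rests on these genes outside the rule as set against all other kept barcodes. Because of how the lists were chosen, they are not an independent check of the name. Markers of other cell types were mixed. Summed over 10 pericyte and smooth muscle markers, the level was 22.4 CPM in mutant and 7.66 CPM in control border cells, and the neuronal markers summed to 12.1 and 14.0 CPM. By contrast, 10 skeletal and cartilage markers summed to 617 and 681 CPM, against 111 and 103 CPM in the other kept barcodes. A list of 10 mesothelial and epithelial markers summed to 160 and 150 CPM, against 143 and 125 CPM. Lists of 10 astrocyte and 10 endothelial markers summed to 2082 and 2923 CPM and to 549 and 474 CPM in mutant and control border cells, against 1469 and 2835 CPM and 270 and 222 CPM in the other kept barcodes. Genes that border cells hold at high levels are among them, Gja1 and Slc4a4 in the astrocyte list and Abcb1a and Cdh5 in the endothelial one. Without these and without Clu and Sox9, 6 astrocyte markers summed to 71.3 and 521 CPM and 8 endothelial markers to 27.0 and 10.9 CPM, and these reduced lists were drawn up after the data had been seen. To find cells with other markers, choroid plexus, ependymal, oligodendrocyte, skeletal, mesothelial and Schwann lists were also shortened, to 6 to 9 markers. The 7 skeletal markers kept summed to 22.1 and 23.0 CPM, against 9.46 and 4.28 CPM in the other kept barcodes. The 6 mesothelial and epithelial ones summed to 10.1 and 8.94 CPM, against 29.7 and 47.2 CPM. Microglial markers, at least 5 of 12, appeared in 34 mutant and 13 control border cells, and 46 and 17 carried markers of some other cell type, those cells included. Without them, 313 mutant and 104 control cells remained, and the summed microglial level was 615 and 718 CPM. Cells were left out on these same markers, so a lower level follows from the choice. Over all border cells the summed microglial level was 2504 and 2442 CPM, against 23240 and 25073 CPM in the other kept barcodes. Ttr, the transthyretin gene of choroid plexus, stood at 9343 CPM in mutant and 8642 CPM in control border cells, against 91645 and 63087 CPM in the other kept barcodes. Its median over border cells was 1678 and 1519 CPM, and 1 control cell held 52.0% of its control UMIs. Without the cells that carried other markers Ttr stood at 1643 and 1715 CPM. A UMI of it was in 100% of microglial barcodes of both libraries, and its source was not tested. The genotype comparison below is given with and without the cells that carried markers of another type.

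Among the genes outside the rule, those furthest above the other barcodes were led by the neighbour of Slc47a1. Slc47a2, another gene of the same transporter family, lies next to it (GRCm38 chr11:61301631-61342860, minus strand) and stood at 107 and 137 CPM in mutant and control border cells, against 0.148 and 0.0492 CPM in the other barcodes. Reads at the junction of such adjacent paralogs may be assigned to either. It had a UMI in 59.3% of mutant and 65.3% of control border cells. The exchangers of sodium or protons Slc9b2 and Slc9a2 were at 297 and 349 CPM and at 270 and 253 CPM.

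The rest of this leading group of 20 genes covered matrix, regulators and receptors. Adamtsl3, a secreted ADAMTS-like matrix protein, stood at 757 and 661 CPM in mutant and control border cells, against 1.13 and 0.853 CPM in the other barcodes. Eya2, a transcriptional coactivator, stood at 607 and 529 CPM. Crabp2, which carries retinoic acid to the nucleus, stood at 211 and 197 CPM, and the cytochrome P450 gene Cyp2f2 at 230 and 264 CPM. The receptors Ptgdr, for prostaglandin D2, and Agtr1b, for angiotensin II, stood at 102 and 97.0 CPM and at 59.5 and 58.7 CPM. Prdm6, Crispld1, Tspan11, Mdfic2, Mpzl2, Mrap and Card14 filled the group, at 69.3 to 514 CPM in mutant and 72.8 to 565 CPM in control border cells.

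Set beside the collagen-rich cells, border cells differed in transporters in both directions. Of 9839 genes measured, 691 (7.02%) were at least 2-fold higher in border cells in both libraries and 553 (5.62%) at least 2-fold lower. Of 35 measured transporters from a list of solute carriers and pumps drawn up with earlier results of these data known, 15 were higher and 12 lower, with a median log2 difference of 0.55 in the mutant and 0.48 in the control library, where the median of all genes was 0.16 and 0.08. When collagen-rich cells were restricted to those with at least 2 UMIs of Slc6a13, 21 mutant and 28 control, 583 genes (5.98%) of 9749 were higher and 582 (5.97%) lower, and of 35 transporters 14 were higher and 13 lower.

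Slc38a2, a sodium-coupled importer of neutral amino acids, was the most abundant transporter of that list. It stood at 5402 and 5242 CPM in mutant and control border cells, against 224 and 308 CPM in the collagen-rich cells, and every border cell of both libraries had a UMI of it. Slc4a10, a sodium bicarbonate transporter, stood at 3641 and 3451 CPM, against 6.40 and 18.8 CPM in the collagen-rich cells. For both genes the lower border level of the 2 libraries lay far above the higher collagen-rich one. Fxyd5, a regulator of the sodium pump, stood at 2966 and 3045 CPM, against 54.4 and 37.7 CPM, and the pump subunit Atp1b1 at 1474 and 1339 CPM, against 3.20 and 25.1 CPM.

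Further anion, vitamin and drug transporters followed. The sulfate transporter Slc26a2 stood at 1217 and 1246 CPM in mutant and control border cells, against 9.61 and 18.8 CPM in the collagen-rich cells, and Slc26a7, an anion exchanger, at 671 and 694 CPM, against 3.20 and 6.28 CPM. The ascorbate transporter Slc23a2 stood at 853 and 937 CPM, against 57.6 and 40.8 CPM, and the taurine transporter Slc6a6 at 405 and 394 CPM, against 6.40 and 0 CPM. The efflux pumps of blood-brain and arachnoid barriers, Abcg2 (the breast cancer resistance protein) and Abcb1a (P-glycoprotein), stood at 672 and 566 CPM, against 41.6 and 47.1 CPM, and at 367 and 323 CPM, against 6.40 and 0 CPM. Transporters that were higher in the collagen-rich cells included the cystine importer Slc7a11, at 2.24 and 20.4 CPM in mutant and control border cells, against 2094 and 2012 CPM, and the organic anion transporter Slc22a6, at 1.34 and 3.83 CPM, against 176 and 308 CPM.

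Several channel and surface genes followed the same division. Kcnb2 (GRCm38 chr1:15287254-15723750, plus strand), a voltage-gated potassium channel, stood at 1011 and 888 CPM in mutant and control border cells, against a count of 0 in the collagen-rich cells of both libraries. Set against the limit of 3 counts that a count of 0 allows, it was at least 105-fold higher in the mutant and at least 94.3-fold higher in the control library. Tmeff2, a transmembrane protein with follistatin-like domains, stood at 1409 and 1312 CPM, against 3.20 and 18.8 CPM, and Emb (embigin), a partner of monocarboxylate transporters, at 685 and 704 CPM, against 0 and 3.14 CPM. Col25a1, a transmembrane collagen, stood at 917 and 652 CPM, against 6.40 and 9.42 CPM.

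Junction genes differed in both directions. Of 24 measured junction and adhesion genes, 5 were higher and 3 lower in border cells than in collagen-rich cells, with a median log2 difference of 0.27 in the mutant and −0.24 in the control library. The gap junction gene Gja1 (connexin 43) stood at 1204 and 1424 CPM in mutant and control border cells, against 285 and 264 CPM in the collagen-rich cells, and the tight junction gene Cldn11 at 221 and 202 CPM, against 16.0 and 34.5 CPM. Cdh1, which encodes the epithelial adhesion protein E-cadherin, stood at 87.4 and 76.6 CPM with a UMI in 42.1% of mutant and 35.5% of control border cells, and at a count of 0 in the collagen-rich cells. The gap junction gene Gjb2 stood at 214 and 236 CPM, against 359 and 603 CPM, and Gjb6 at 441 and 449 CPM, against 493 and 835 CPM.

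The arachnoid barrier markers were thus present only in part. Cdh1, Cldn11, Abcb1a and Abcg2 had the levels above and Dpp4, a surface peptidase, stood at 27.3 CPM in mutant and 17.9 CPM in control border cells. The keratin genes Krt8 and Krt18 stood at 3.35 and 1.28 CPM and at 5.81 and 4.47 CPM, and the desmosome gene Dsp at 2.46 and 1.28 CPM.

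**Figure D3:**
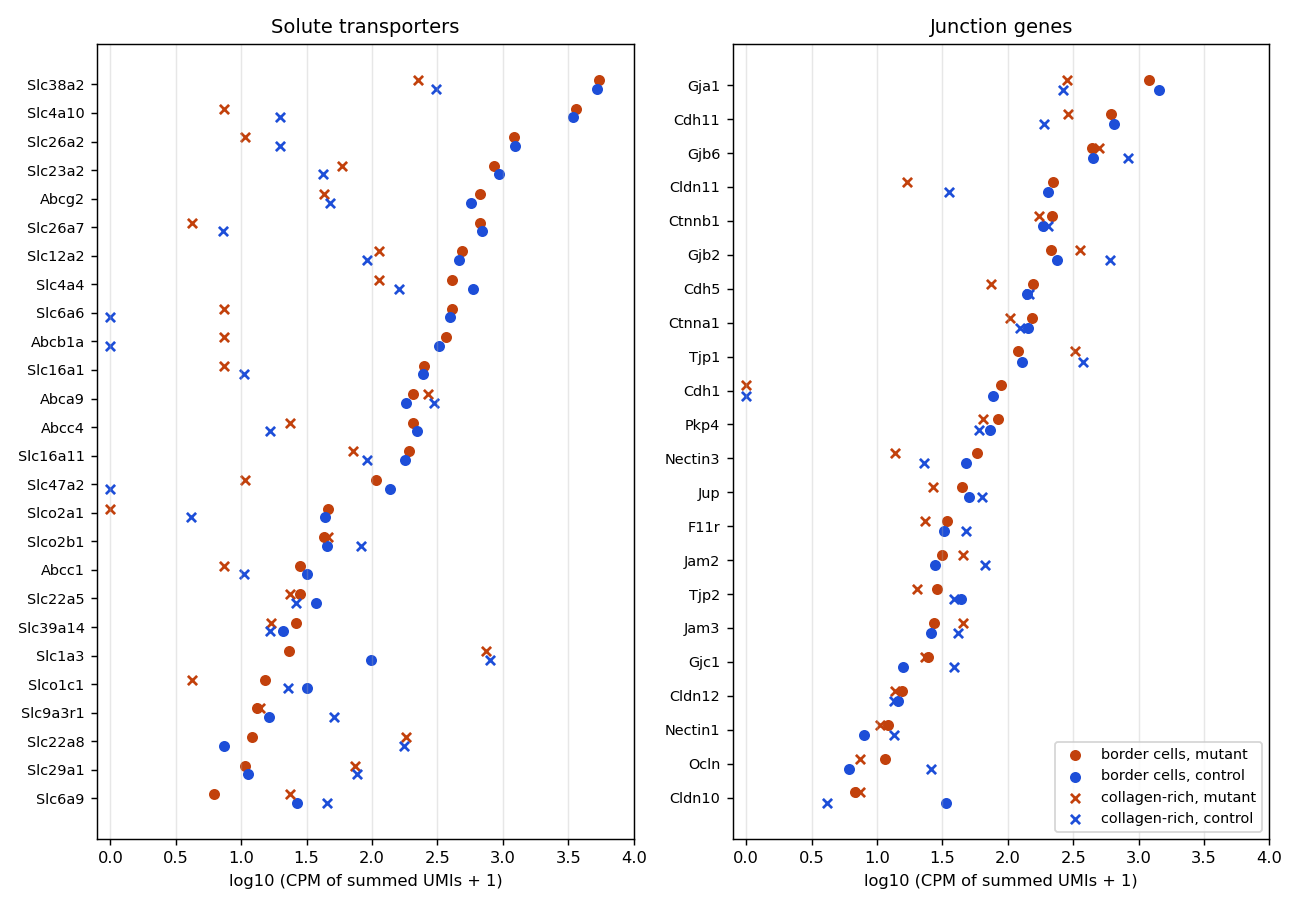
Transporter genes (left) and junction genes (right) in border cells and collagen-rich cells of the mutant and the control library, as log10 of CPM plus 1; circles are border cells and crosses collagen-rich cells. Slc38a2 and Slc4a10 lead the border cells at 5402 and 3641 CPM in the mutant library, while Gjb2, Gjb6 and Tjp1 stand higher in the collagen-rich cells.

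Basement membrane and fibril genes stood on the other side. Of 34 measured basement membrane and collagen genes, 20 were lower in border cells and 6 higher, with a median log2 difference of −2.11 in the mutant and −1.72 in the control library. The laminin chains Lama1 (GRCm38 chr17:67697259-67822647, plus strand) and Lamc3 had a count of 0 in the border cells of both libraries, against 772 and 578 CPM and against 192 and 176 CPM in the collagen-rich cells. Col13a1, a transmembrane collagen, was also at 0, against 237 and 220 CPM, and Col15a1 and the type IV chain Col4a6 stood at 2.68 and 3.19 CPM, against 631 and 584 CPM, and at 0.447 and 0 CPM, against 631 and 254 CPM. A further list of 12 meningeal layer genes had 8 lower and 1 higher. The 6 higher ones were Col6a1, Col6a2, Col8a1, Col8a2, Col14a1 and Col25a1, and the type VIII chain Col8a1 stood at 257 and 194 CPM in mutant and control border cells, against 19.2 and 44.0 CPM. Fn1 (fibronectin), from a list of matrix glycoproteins, stood at 715 and 514 CPM, against 60.8 and 22.0 CPM.

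Secreted signals also differed. Bone morphogenetic protein signalling passes from secreted ligands through SMAD proteins to targets such as the Id genes. Of 17 measured genes for its ligands and antagonists, 7 were higher and 2 lower in border cells. Their median log2 difference was 1.35 in the mutant and 0.83 in the control library. Because the list joins ligands with antagonists, these counts do not measure the strength of signalling. The ligand gene Bmp4 stood at 312 and 279 CPM, against 73.6 and 129 CPM in the collagen-rich cells, whereas Bmp6 stood at 189 and 112 CPM, against 644 and 518 CPM. The target genes Id1, Id2 and Id3 stood at 572 and 611 CPM, 594 and 724 CPM, and 852 and 955 CPM in mutant and control border cells. Among 16 measured genes for Wnt and R-spondin ligands and secreted Wnt inhibitors, 4 were higher and 5 lower. The secreted inhibitor Sfrp4 stood at 200 and 283 CPM, against 3.20 and 12.6 CPM. The ligands Wnt5a and Wnt4 stood at 11.4 and 5.11 CPM, against 311 and 386 CPM, and at 1.34 and 0.638 CPM, against 109 and 468 CPM. Slit2, a repellent guidance cue, stood at 1174 and 874 CPM, against 19.2 and 22.0 CPM.

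The transcription factors divided evenly, 7 of 26 measured being higher and 7 lower. Foxp1 stood at 1528 and 1480 CPM in mutant and control border cells, against 474 and 273 CPM in the collagen-rich cells, and Prrx2, a homeobox factor of mesenchyme, at 200 and 207 CPM, against 25.6 and 28.3 CPM. Lmx1b, a LIM homeobox factor, stood at 44.3 and 49.8 CPM, against a count of 0. On the other side Tbx18 stood at 68.6 and 52.4 CPM, against 282 and 301 CPM, Nr2f2 at 113 and 141 CPM, against 516 and 587 CPM, and Ebf2 at 5.81 and 1.92 CPM, against 211 and 166 CPM. Foxc1, which meningeal development requires, stood at 265 and 278 CPM, against 279 and 465 CPM. The barcodes that met the border part of the rule but had 5 or more collagen genes, 87 mutant and 23 control, were close to the border cells: of 10112 genes 21 (0.208%) were at least 2-fold higher in border cells and 89 (0.88%) at least 2-fold lower.

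Within a library the border cells were not uniform. Variation was measured as the dispersion index, the variance of a gene's count over what counting alone gives at each cell's depth, computed without the cells that carried other markers; it had a median of 1.51 in the mutant and 1.53 in the control library over 1761 genes at 100 CPM or more. Ptgds, which encodes the prostaglandin D synthase abundant in cerebrospinal fluid, had the highest values named here, at 717 and 454. The 36 highest mutant cells held 70.7% of the Ptgds UMIs of mutant border cells, and the 13 highest control cells held 81.9% of those of control border cells. Mgp had a dispersion index of 59.2 and 93.5, Igfbp5 51.7 and 57.2, Ppp6r3, a phosphatase regulatory subunit, 27.1 and 44.0, Col25a1 27.0 and 31.5, and Prg4, which encodes the lubricant lubricin, 24.6 and 19.0.

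This index grows with a gene's level as well as with its spread. The transporter gene Slc4a10, more abundant than Col25a1, had a dispersion index of 16.5 and 14.3. The median cell had Slc38a2 at 5860 CPM in the mutant and 5982 CPM in the control library, and Slc47a1 at 1592 and 1727 CPM. Dcn, a gene of the rule, had a UMI in 51.3% of mutant and 51.2% of control border cells, Cyp2f2 in 54.0% and 57.9%, Prg4 in 45.4% and 38.0%, and Penk, which encodes the opioid precursor proenkephalin, in 49.0% and 52.1%.

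Apart from the pair of Igfbp5 and Col25a1, the gene pairs named here were picked among 1297 genes for a strong correlation of the same sign in both libraries, so that their likeness between libraries comes from the choice. Over the 313 mutant and 104 control cells without markers of another type, Col25a1 had a Spearman correlation of 0.45 and 0.44 with Bmp4 and of 0.40 and 0.45 with Bmp6, and of −0.45 and −0.47 with the growth factor gene Mdk. Igfbp5 had one of 0.53 and 0.56 with Col1a1, both genes of the rule, and of 0.43 and 0.51 with Clec11a, which encodes a bone growth factor. Igfbp5 and Col25a1 had −0.25 and −0.29 with each other. Ptgds had 0.53 and 0.48 with Apod, the gene of a lipid carrier, and Mgp had 0.40 and 0.53 with Timp1, which encodes an inhibitor of metalloproteases. The cells of a library share its preparation and differ in depth, and Slc47a1 itself had a correlation of −0.38 and −0.50 with the total UMIs of a cell, while Col25a1 had −0.14 and −0.23. These values are descriptions of 2 libraries and carry no p-value.

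**Figure D4:**
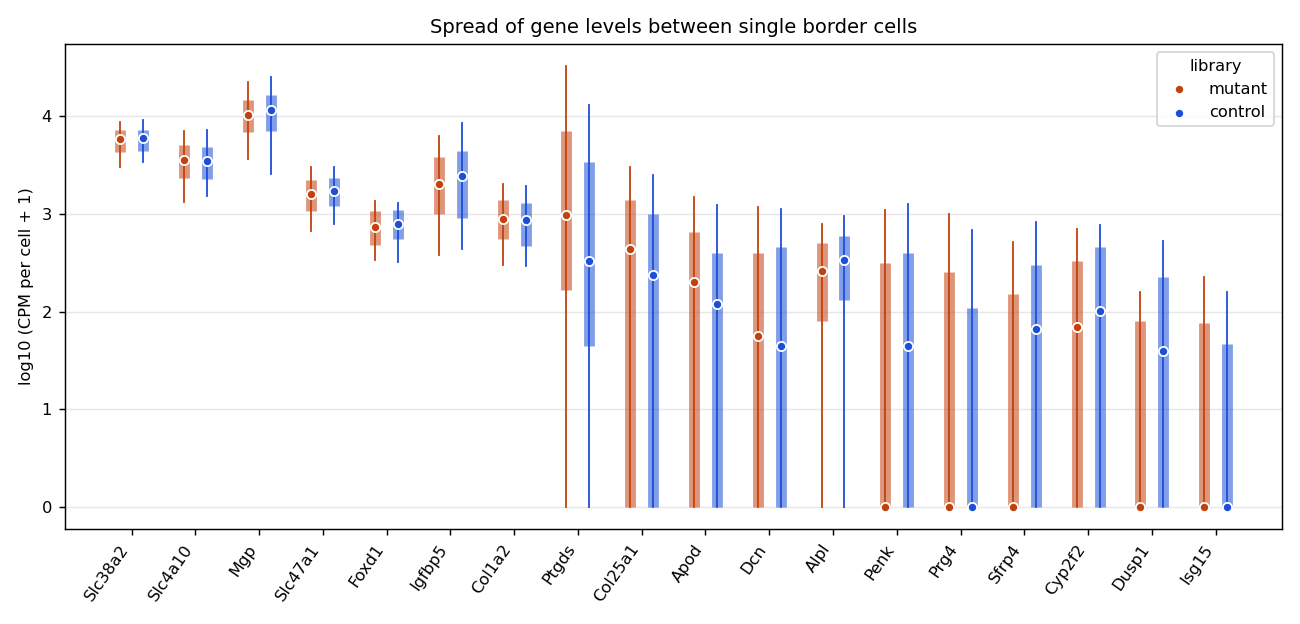
Spread of levels over single border cells of the mutant library (left of each pair) and the control library (right) as log10 of CPM plus 1; points are medians, thick bars run between the quartiles and thin lines between the 10th and 90th percentiles. Ptgds has long bars around a median of 979 CPM in mutant and 332 CPM in control cells, while Slc38a2 lies within a narrow band around 5860 and 5982 CPM.

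Between genotypes, 9 immediate early genes met a rule of size as lower in the mutant library and 5 interferon genes as higher. A gene with at least 50 UMIs met this size rule at a ratio of mutant to control CPM of at least 1.5, or at most 1 over 1.5, with a 95% interval of the ratio that excluded 1. Of 9502 genes, 214 (2.25%) met it as higher in the mutant and 368 (3.87%) as lower. Without the cells that carried markers of another type, 211 (2.44%) of 8640 were higher and 206 (2.38%) lower. Of the 214 higher and 368 lower genes, 30 and 189 had over 20% of the UMIs of the library where they were higher in 1 cell, and 64 and 212 stood below the other barcodes in both libraries. A group of 52 higher and 41 lower genes met the rule with and without the cells just named, had no such cell and stood above the other barcodes in both libraries. Each genotype was 1 library, so an effect of genotype and a difference in handling cannot be told apart. A UMI of a Y-linked gene was in 28.7% of mutant and 14.0% of control border cells, and its part in these counts was not tested.

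Calls in the lists that describe the cell type were few: none of 24 measured meningeal transcription factors, 22 fibroblast and mesenchymal genes and 26 basement membrane and collagen genes met the rule in either direction. Of 8 arachnoid barrier genes Dpp4 was higher in the mutant, with a ratio of 1.53, and of 7 meningeal layer genes Ptgds was. Without the cells that carried other markers, S100a6 of the meningeal layer list was also lower, with a ratio of 0.620. At the background shares of 2.25% and 3.87%, few calls in lists of this size are near what all genes gave. Foxd1 had a ratio of 0.965 (0.904 to 1.03), Fn1 one of 1.39 and Slc38a2 one of 1.03. Over all genes the median log2 ratio was 0.01. Of 26 transporters 3 were lower and none higher, namely Slc1a3, Slco1c1 and Slc6a9. Slc1a3, an astrocyte glutamate transporter, stood at 22.1 CPM in mutant and 97.7 CPM in control border cells. The summed level of the 6 astrocyte markers of the reduced list was 71.3 CPM in mutant and 521 CPM in control border cells, against 384 and 1324 CPM in the other barcodes, while the full list of 10 stood above the other barcodes in both libraries; its part in the result was not tested.

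Immediate early genes encode fast-acting regulators that respond within minutes to stimulation and also to tissue dissociation. Of 21 measured, 9 met the rule as lower in the mutant and none as higher, with and without the cells that carried other markers, and the median log2 ratio was −0.36, or −0.57 without those cells. Egr1, a zinc finger factor, stood at 18.8 CPM in mutant and 126 CPM in control border cells, a ratio of 0.149 (0.114 to 0.194). Fos, a component of the AP-1 factor, had 58 UMIs in the 359 mutant and 104 in the 121 control border cells, a ratio of CPM of 0.195 (0.139 to 0.272). The orphan nuclear receptor Nr4a2 stood at 17.4 and 60.0 CPM, a ratio of 0.290 (0.212 to 0.396). The intervals of all 3 lay below 1. These genes were spread unevenly over cells. Egr1 had a UMI in 9.19% of mutant and 21.5% of control border cells, and Fos in 11.4% and 24.8%. The 13 control cells highest in each held 88.8% of Egr1, 81.7% of Fos and 77.7% of Nr4a2 UMIs. The 36 highest mutant cells held 100%, 91.4% and 76.9%. The summed level of the list had a median over cells of 1405 CPM in the mutant and 1579 CPM in the control library. Its 90th percentile was 2671 and 3843 CPM.

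Dusp1 (GRCm38 chr17:26505590-26562128, minus strand), a phosphatase that switches off MAP kinases, had 234 UMIs in mutant and 247 in control border cells, or 52.3 and 158 CPM, a ratio of 0.332 (0.276 to 0.398). Btg2, an antiproliferative gene, stood at 52.1 and 107 CPM, a ratio of 0.488. Nr4a1, Junb, Ier2 and Zfp36 completed the 9. The difference was not general to the list: Klf2 stood at 383 and 375 CPM, Jund at 263 and 252 CPM and Jun at 91.4 and 103 CPM. In the other kept barcodes Egr1 stood at 5.04 and 8.68 CPM and Fos at 8.38 and 21.7 CPM in the mutant and control libraries. For Egr1, Fos and Dusp1 the ratio stayed between 0.0967 and 0.362 under every alternative setting run, and Junb and Ier2 left the rule under some of them.

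Of the 7 lower immediate early genes found in the promoter table of RefSeq, 2 held the palindrome TGACGTCA, the cAMP response element, in the 250 bases before the start, and none of the 12 that met the rule in neither direction did; 1.55% of all 32851 windows held it. The windows of Dusp1 and Btg2 are printed to show where the element lies. It begins 143 bases before the start in Dusp1 (chr17:26508473-26508722, minus strand) and 166 in Btg2 (chr1:134079156-134079405, minus strand). Both windows are in GRCm38.p6, 5′ to 3′ on the gene's strand with the element in capitals. The letters are a description and neither a proven site nor a cause.
Dusp1: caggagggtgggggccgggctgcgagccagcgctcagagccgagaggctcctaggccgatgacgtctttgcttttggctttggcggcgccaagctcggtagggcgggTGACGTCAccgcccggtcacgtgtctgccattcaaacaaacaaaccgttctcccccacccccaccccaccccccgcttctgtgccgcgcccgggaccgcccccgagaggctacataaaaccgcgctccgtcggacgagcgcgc
Btg2: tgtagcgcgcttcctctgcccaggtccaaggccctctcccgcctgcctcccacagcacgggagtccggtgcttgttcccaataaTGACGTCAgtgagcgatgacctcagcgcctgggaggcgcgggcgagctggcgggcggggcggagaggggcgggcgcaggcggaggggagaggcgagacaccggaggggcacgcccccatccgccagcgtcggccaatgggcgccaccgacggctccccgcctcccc

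Type I interferon genes are switched on when interferon binds its receptor, and many of their products block viruses. Of 16 measured, 5 met the rule as higher in the mutant and none as lower, also without the cells that carried other markers, and the median log2 ratio was 0.50. Isg15 (GRCm38 chr4:156199424-156200818, minus strand), a ubiquitin-like modifier, had 588 UMIs in mutant and 107 in control border cells, or 131 and 68.3 CPM, a ratio of 1.92 (1.56 to 2.39). It had a UMI in 122 of 359 mutant and 34 of 121 control border cells. The RNA-binding effectors Ifit1 and Ifit3 stood at 76.7 and 44.7 CPM, a ratio of 1.72 (1.32 to 2.25), and at 64.8 and 38.3 CPM, a ratio of 1.69 (1.28 to 2.27).

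Ddx58, which encodes the RNA sensor RIG-I, stood at 42.0 and 19.8 CPM, a ratio of 2.12 (1.45 to 3.21). The antiviral gene Rsad2 was at 14.1 CPM in mutant and 2.55 CPM in control border cells, but 1 cell held 85.7% of the UMIs of one library. In the other kept barcodes Isg15 stood at 16.4 and 16.2 CPM and Ifit1 at 4.85 and 4.82 CPM in the mutant and control libraries. Ifitm3, at 664 and 572 CPM, and Bst2, at 157 and 118 CPM, did not meet the rule.

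Interferon genes were spread unevenly over cells. The summed level of the list had a median over cells of 769.9 CPM in the mutant and 759 CPM in the control library, while its 90th percentile was 2190 and 1914 CPM. The 36 highest mutant cells held 52.6% of the list's UMIs in mutant border cells, and the 13 highest control cells 42.1% of those in control border cells. Single genes differed in this: the 36 mutant and 13 control cells highest in Isg15 held 81.3% and 79.4% of its UMIs, and those highest in Ddx58 held 51.1% and 58.1%, with a Ddx58 UMI in 34.0% of mutant and 21.5% of control border cells. With each cell thinned to 5000 UMIs the ratio was 1.45 for Ifit1 and 1.20 for Ifit3, which no longer met the rule, whereas that of Isg15 stayed between 1.56 and 2.11 under every alternative run. Ifi27l2a, another interferon-induced gene outside the list, stood at 183 and 95.1 CPM, a ratio of 1.92 (1.61 to 2.31).

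Of the 5 higher interferon genes, 4 held the core of the interferon-stimulated response element in the 250 bases before the start. This core is GAAA, any 2 bases and GAAA again, or their complement with TTTC. It was also in 3 of the 9 matched genes that met the rule in neither direction. Counted per gene, 3.46% of all 27025 genes held it, and counted per window 2.98% of all 32851. Matches may overlap: Isg15 (chr4:156200819-156201068, minus strand) had 3 that run into each other from 78 bases before the start. Ifit1 (chr19:34640639-34640888, plus strand) had 2 from 104 bases and Ifit3 (chr19:34583279-34583528, plus strand) 2 from 156 bases before it. The windows are from RefSeq in GRCm38.p6, 5′ to 3′ on the gene's strand with the matches in capitals, and the same reading applies to these letters.
Isg15: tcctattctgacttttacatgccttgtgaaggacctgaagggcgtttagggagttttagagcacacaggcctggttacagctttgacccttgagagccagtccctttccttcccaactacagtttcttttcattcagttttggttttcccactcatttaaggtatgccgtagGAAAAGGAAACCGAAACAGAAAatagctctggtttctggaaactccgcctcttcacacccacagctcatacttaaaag
Ifit1: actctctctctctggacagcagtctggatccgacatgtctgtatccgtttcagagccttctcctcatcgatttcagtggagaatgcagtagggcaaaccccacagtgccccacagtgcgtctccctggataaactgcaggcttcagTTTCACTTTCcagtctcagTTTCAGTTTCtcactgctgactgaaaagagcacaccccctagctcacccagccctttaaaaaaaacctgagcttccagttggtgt
Ifit3: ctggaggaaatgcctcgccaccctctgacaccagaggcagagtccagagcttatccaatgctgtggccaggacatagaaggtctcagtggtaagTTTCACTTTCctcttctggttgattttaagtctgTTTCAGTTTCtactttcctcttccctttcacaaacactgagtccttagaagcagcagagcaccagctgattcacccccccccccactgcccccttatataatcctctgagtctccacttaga

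**Figure D5:**
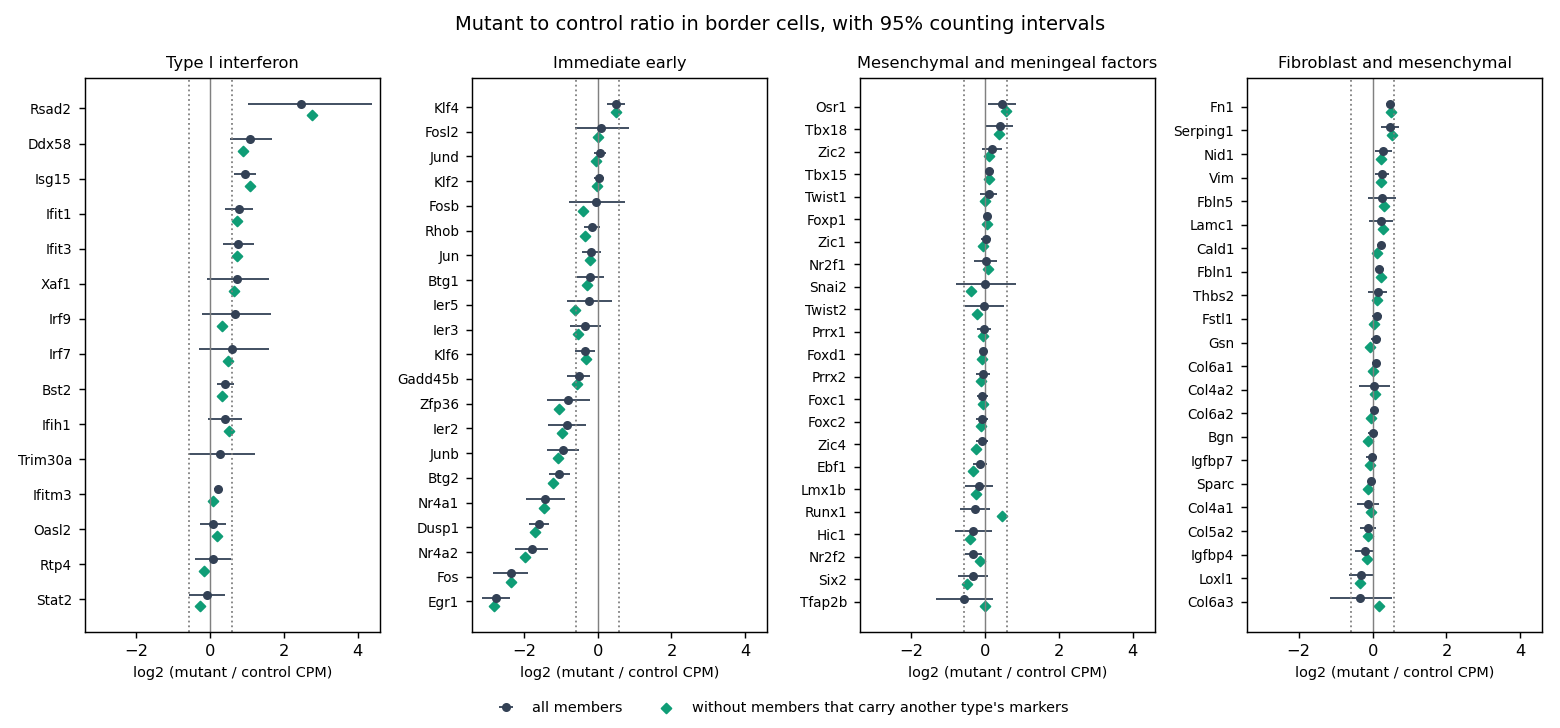
Log2 ratio of mutant to control CPM in border cells for genes of 4 lists, with 95% counting intervals for all border cells (circles) and values without the cells that carry another type's markers (diamonds). Dotted lines mark the 1.5-fold limits; Egr1, Fos and Dusp1 lie left of them at ratios of 0.149, 0.195 and 0.332, Isg15 lies right of them at 1.92, and the mesenchymal lists lie between them.

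Among the genes that met the size rule as higher was Ptgds (GRCm38 chr2:25466709-25470046, minus strand), with 47059 UMIs in mutant and 8976 in control border cells. It stood at 10518 CPM in the mutant and 5731 CPM in the control library, a ratio of 1.84 (1.79 to 1.88), and at 52147 and 102197 CPM in the collagen-rich cells. Without the cells called doublets its ratio was 1.38, so that it no longer met the rule, and without the cells that carried other markers it was 2.01. Prg4 stood at 324 and 209 CPM, a ratio of 1.55 (1.37 to 1.75), and Bmp6 at 189 and 112 CPM, a ratio of 1.68 (1.43 to 1.99). With no mitochondrial limit these became 1.30 and 1.33 and no longer met the rule.

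The genes with the most extreme higher ratios included several held mostly by 1 cell. Lypd2, a gene of the Ly6 family with no cell over 20% of its UMIs, stood at 76.9 CPM in mutant and 19.2 CPM in control border cells, a ratio of 4.01 (2.76 to 6.04), and Rbp4, the carrier of retinol, at 120 and 37.7 CPM, a ratio of 3.19. With no mitochondrial limit both turned over, to 0.775 and 0.621. Top2a, a gene of dividing cells, stood at 33.1 and 0 CPM with 91.9% of its mutant UMIs in 1 cell, and the haemoglobin gene Hbb-bs at 211 and 40.2 CPM with 75.4% in 1 cell. Dapl1 stood at 20.6 and 2.55 CPM and Emp2 at 20.6 and 4.47 CPM. H1f5, Hba-a1, Diaph3 and Krtdap had 64.6% to 93.5% of their mutant UMIs in 1 cell.

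The lowest ratios belonged to genes of other cell types. Prl, the prolactin gene of the pituitary, stood at 0 CPM in mutant and 106 CPM in control border cells, against 0 and 1987 CPM in the other barcodes, and a Prl UMI was in 62.0% of control border cells and 62.0% of control microglial barcodes. The macrophage chemokine gene Pf4 stood at 0.447 and 40.2 CPM, with 84.1% of its control UMIs in 1 cell. Luzp2, Adgrl3, Erbb4, Negr1, Grm3 and Sox6 likewise had 39.3% to 72.7% of their control UMIs in 1 cell. Of genes that stood above the other barcodes in both libraries, Ubb, a ubiquitin precursor, was at 192 and 299 CPM, a ratio of 0.640 (0.572 to 0.718), and Tgfbi, a matrix protein induced by TGF-beta, at 121 and 184 CPM, a ratio of 0.659. Both were also lower in the mutant library among the other kept barcodes. There Ubb stood at 134 and 196 CPM and Tgfbi at 30.8 and 50.2 CPM in the mutant and control libraries.

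The floxed gene and its ligands were little represented in these cells. Csf1r stood at 115 CPM in mutant and 133 CPM in control border cells, against 1071 and 1391 CPM in the other barcodes, with a UMI in 28.1% and 31.4% of border cells and in 99.9% and 99.9% of microglial barcodes. Its ratio was 0.863 (0.733 to 1.02), and 0.530 (0.443 to 0.636) without the cells called doublets, which meets the size rule as lower. Of Csf1r, Csf1 and Il34, 2 were measured without the cells that carried other markers, and none met the rule in either direction there. Csf1r is itself among the 12 microglial markers by which cells were left out. The tags counted lie near the 3′ end of the transcript and need not lie in the floxed part, so they do not check the deletion. Mrc1, whose locus drives Cre, stood at 3.13 and 51.1 CPM, and 1 control cell held 92.5% of its control UMIs. Csf1 stood at 35.3 and 40.9 CPM and Il34 at 8.72 and 7.66 CPM in mutant and control border cells, against 186 and 185 CPM of Il34 in the collagen-rich cells. Of 21 measured genes for ligands that act on macrophages 1 met the rule as higher, Cd200, and 3 as lower. Apoe, one of the lower ones, stood at 777 and 1345 CPM, a ratio of 0.578, but had a ratio of 1.06 without the cells that carried other markers.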

How the data were processed

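Cells were sequenced with the 10x Genomics 3′ v3.1 kit, per the labels' protocols. The deposited values are raw UMI counts per gene and barcode, made by the authors with Cell Ranger 7.1.0, per the file headers, on GRCm38.p6 (mm10), per the submitters' processing notes. The 26033 gene symbols were matched to GENCODE M21 for 25637 of them. From the counts, sums per library and set were scaled to counts per 1000000, and intervals are exact (Poisson, Clopper-Pearson or conditional for a ratio of 2 counts). Doublets were called with Scrublet in scanpy 1.11.5 on all barcodes with at least 500 genes (197 of 7974 mutant, 174 of 8081 control barcodes) and left in. Other computation used Python 3.11.15, numpy 2.4.6 and scipy 1.17.1, and the scripts were tested on simulated data. Mitochondrial, ribosomal protein, predicted, sex-linked and duplicated symbols and the 15 rule genes were left out of the size rule. The members, lists and lists' genes were chosen with earlier results of these data known. Named genes are the rule genes, the 20 leading genes against other barcodes, the 10 highest and lowest against collagen-rich cells and, at 20 CPM or more, between genotypes, the most abundant and all called members of each list, and Csf1r, Csf1 and Il34; the genotype genes above the other barcodes in both libraries were chosen after their values were seen. With chromosome 18 left out, the promoter table matched 16 of 20 interferon and 22 of 25 immediate early genes. The bases after the start began a GENCODE transcript for 4 of the 5 windows printed, not for Btg2. Alternatives changed the limits of the rule, the UMI minimum, the scaling, the depth and the cells included. Some genes that the naming rule selects are not reported here.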

Additional observations from a re-analysis of the deposited data

How the results depend on the processing

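With 1 library per genotype, every value carries counting error only, and genes with few UMIs are limited by depth. No paired analysis was possible because the mutant and control groups, with 1 library each, share fewer than 2 replicate numbers. The share of border cells was 7.09% in the mutant library with no collagen limit, 1.16% and 0.435% in the mutant and control libraries with fewer than 3 collagen genes, 2.52% and 0.608% with at most 5% mitochondrial UMIs, 7.57% and 2.56% with each barcode thinned to 5000 UMIs, and 4.97% in the mutant library without cells carrying other markers; it was higher in the mutant under each. Genes meeting the size rule numbered 322 higher and 611 lower at 10 UMIs or more, and 56 and 85 at 200 or more. Lower genes numbered 140 with cells thinned, 206 without cells carrying other markers and 179 with no cell over 20% of the UMIs. With 4 border genes sufficing, the ratio of Ccn2 was 0.729, against 1.66 with 5; with no mitochondrial limit Lypd2 had 0.775 and Rbp4 0.621. The ratios with no mitochondrial limit, the alternatives on other markers and single cells, and the Slc6a13 restriction were chosen after seeing the data. For the shares, the mitochondrial limits had been planned. The cause of each shift was not tested. Ifit3 had 1.35 with equal weight per cell and 1.41 with no collagen limit; Junb had 0.688 and Tgfbi 0.760 with no mitochondrial limit. No other ratio among the genes followed through the alternatives that met the size rule changed direction.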
